A study of Mus musculus with 3 samples.

Results

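Toll-like receptors and the proteins that serve them were followed across the leukocytes of injured mice, in 9 genes of the 27998 in the deposited count matrices. The 9 genes were taken by symbol, and they are the receptors *Tlr1*, *Tlr2*, *Tlr4*, *Tlr6*, *Tlr7*, *Tlr9*, and *Tlr13*, the coreceptor *Cd14*, and the adaptor *Myd88*. All 9 had at least 1 UMI (unique molecular identifier, a counted transcript) in each library. The mice were 10 weeks old and had received burn/tenotomy, a burn to the back together with a full cut of the Achilles tendon, 3 days earlier. For each of 3 tissues there was 1 library of unsorted cells, namely bone marrow that had been flushed and freed of red cells by lysis, mononucleated blood cells from a Ficoll gradient followed by the same lysis, and the tendon injury site, which was the tissue dissociated with enzymes. Blood neutrophils are therefore those that remained in a mononuclear cell preparation. No uninjured mice are among these libraries, and how many mice each library was made from is not stated in the labels or methods. The study's methods name male C57BL/6J mice as purchased stock, without tying them to these libraries. With 1 library per tissue, no difference between tissues has a replicate check, no test was run, and site, preparation, and library are confounded and cannot be told apart.

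Toll-like receptors recognise conserved microbial molecules and products of damaged tissue. TLR2 pairs with TLR1 or TLR6 at the cell surface to bind lipoproteins, and TLR4 binds lipopolysaccharide there together with MD-2, to which CD14 hands the ligand. TLR7, TLR9, and TLR13 sit in endosomes, where they bind single-stranded RNA, unmethylated CpG DNA, and bacterial ribosomal RNA, respectively. MyD88 couples all of these receptors to IRAK kinases and NF-kB, and neutrophils, monocytes, and macrophages are the leukocytes best known for carrying the surface receptors and CD14.

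All 9 genes are protein coding in GENCODE M21 on GRCm38. *Tlr1* (ENSMUSG00000044827) lies on chromosome 5 from 64924679 to 64933563 and its neighbour *Tlr6* (ENSMUSG00000051498) from 64952031 to 64960097, both on the minus strand. The last 1000 bases of their longest transcripts, where a 3′ protocol reads, shared 0 windows of 25 bases. *Tlr2* (ENSMUSG00000027995) lies on chromosome 3 from 83836272 to 83841767 on the minus strand, and *Tlr4* (ENSMUSG00000039005) on chromosome 4 from 66827584 to 66930284 on the plus strand. *Tlr7* (ENSMUSG00000044583) and *Tlr13* (ENSMUSG00000033777) lie on the X chromosome, from 167304929 to 167330558 on the minus strand and from 106143204 to 106160493 on the plus strand. *Tlr9* (ENSMUSG00000045322) lies on chromosome 9 from 106222598 to 106226883 on the plus strand, and *Myd88* (ENSMUSG00000032508) on chromosome 9 from 119335934 to 119341411 on the minus strand. The annotated span of *Myd88* overlaps *Slc22a14* on the same strand and *Acaa1a* on the other, so part of its UMIs could belong to a neighbour.

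Promoter sequence is shown for *Tlr2* and *Tlr13*, which were at least 2-fold higher both in mature marrow neutrophils and in tendon neutrophils, for *Tlr9*, which had no UMI in those gates, and for the adaptor *Myd88*. RefSeq promoter entries on GRCm38.p6 (8 in all) matched 6 of the 9 genes, all but *Tlr4*, *Tlr7*, and *Cd14*. In the 250 bases before each start, 3 motifs were searched on both strands, the PU.1 core GAGGAA, the interferon response element GAAANNGAAA, and the NF-kB consensus. Of 32851 promoters of the same length, 23.3% held the PU.1 core, 2.98% the interferon response element, and 7.25% the NF-kB consensus, and of the 8 member promoters 3, 2, and 1 held them. The stretches below run 5′ to 3′ up to the first annotated exon base of the same gene, with motif matches in capitals. The *Tlr2* stretch is chr3:83841768-83841858 on the minus strand and holds 2 overlapping NF-kB matches. The *Tlr13* stretch is chrX:106143025-106143203 on the plus strand with 1 PU.1 core, and the *Tlr9* stretch is chr9:106222348-106222597 on the plus strand with 1 PU.1 core. The *Myd88* stretch is chr9:119340042-119340268 on the minus strand and holds 1 interferon response element. A match describes the letters and does not show that a factor binds.
Tlr2: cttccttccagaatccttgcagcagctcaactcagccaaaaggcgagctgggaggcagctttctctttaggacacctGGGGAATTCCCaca
Tlr13: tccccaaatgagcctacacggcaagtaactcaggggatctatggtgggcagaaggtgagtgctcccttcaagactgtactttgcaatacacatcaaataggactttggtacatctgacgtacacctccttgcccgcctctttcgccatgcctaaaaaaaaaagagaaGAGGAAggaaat
Tlr9: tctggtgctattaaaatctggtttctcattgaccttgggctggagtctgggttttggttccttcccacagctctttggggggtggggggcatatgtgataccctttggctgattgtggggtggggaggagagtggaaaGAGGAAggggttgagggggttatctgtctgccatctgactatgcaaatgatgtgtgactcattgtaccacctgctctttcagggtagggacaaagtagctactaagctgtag
Myd88: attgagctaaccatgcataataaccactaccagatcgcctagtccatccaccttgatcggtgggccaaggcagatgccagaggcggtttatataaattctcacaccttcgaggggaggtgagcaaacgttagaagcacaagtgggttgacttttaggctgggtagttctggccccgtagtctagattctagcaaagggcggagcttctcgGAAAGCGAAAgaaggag

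The marrow library held 1855 barcodes with 49580625 UMIs, the blood library 2241 with 22542581, and the tendon library 5629 with 90621052, of which 1813, 2146, and 4780 cells were kept after the filters and the removal of doublets. The libraries shared 2 barcodes (marrow and blood), 1 (marrow and tendon), and 6 (blood and tendon). Each library was clustered by itself without the 9 genes, and clusters were named from marker lists (neutrophil-like, monocyte/macrophage-like, and so on). The naming had a second step that was settled after clusters had been seen. Unnamed were 1 marrow cluster led by *Ctsg* and *Mpo* (109 cells) and 3 tendon clusters, led by *Acp5* and *Eno3* (302 cells), *Camp* and *Ngp* (62 cells), and the mast cell genes *Mcpt4* and *Cma1* (53 cells). Levels are given as CPM, the UMIs of a gene in a group of cells per 1000000 UMIs of that group, and their 95% intervals are exact Poisson intervals that cover counting error only.

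Neutrophil-like cells were split in turn into a promyelocyte, a cycling, an immature, and a mature gate, without use of the 9 genes. Azurophil granule genes set the promyelocyte gate (at least 0.2% of a cell's UMIs), and proliferation genes such as *Mki67* set the cycling gate (0.05%). Specific granule genes such as *Ltf* set the immature gate (1%), and the remaining cells formed the mature gate. The immature gate held 575 marrow cells, and the mature gate held 207 marrow, 363 blood, and 550 tendon cells, whose median depths were 20710, 11130, 8327, and 3474 UMIs. In the marrow, 117 of 1207 neutrophil-like cells lay close to the cut on specific granule genes. *Cxcr2*, a chemokine receptor of mature neutrophils that the gates did not use, stood at 428 CPM in the immature gate and at 1555, 1687, and 989 CPM in the mature gates of marrow, blood, and tendon. *Csf3r*, the G-CSF receptor, stood at 125 CPM in the immature gate and at 734, 1582, and 916 CPM in the mature gates, and *Cebpb*, a factor of late-stage neutrophils, at 140, 629, 946, and 3158 CPM. The 20 neutrophil markers summed to 425427, 354019, and 185508 CPM in the mature gates of marrow, blood, and tendon, against 1421 CPM in tendon C1q-low monocytes/macrophages. *Mmp8*, a granule collagenase, stood at 1816 CPM in the immature gate and at 3144, 1477, and 571 CPM in the mature gates.

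Within the marrow, where both gates came from the same library, all receptors but *Tlr7* and *Tlr9* were higher in mature than in immature neutrophils. Of the 8 members with at least 20 UMIs in both gates together, 7 were at least 2-fold higher and 0 at least 2-fold lower, while 11.2% of 8008 genes were higher and 18.2% lower by that rule. *Tlr2*, the lipoprotein receptor, had 20.3 CPM in the immature gate and 81.0 CPM in the mature gate, a log2 ratio of 1.99 (95% interval 1.71 to 2.27). Its partner *Tlr1* had 1.49 and 9.10 CPM, from only 18 and 21 UMIs, with a log2 ratio of 2.61 (1.63 to 3.61), and the other partner *Tlr6* had 5.04 and 21.2 CPM with a log2 ratio of 2.07 (1.50 to 2.64). These 3 receptors thus shared a direction with *Tlr4*, the lipopolysaccharide receptor, which had 10.0 and 38.6 CPM and a log2 ratio of 1.95 (1.54 to 2.35). *Cd14* had 7.36 and 26.4 CPM, a log2 ratio of 1.84 (1.35 to 2.33). Of the endosomal receptors, *Tlr13* had 26.5 and 101 CPM, a log2 ratio of 1.94 (1.69 to 2.19), whereas *Tlr7* had 8.10 and 8.66 CPM and a log2 ratio of 0.10 (-0.68 to 0.80). *Tlr9* had 0 UMIs in both gates, and a count of 0 allows up to 0.248 CPM in the immature gate and 1.30 CPM in the mature gate. *Myd88* had 44.7 and 102 CPM and a log2 ratio of 1.19 (0.96 to 1.41), which came to 0.96 when mitochondrial, ribosomal protein, and very abundant genes were left out of the total. The median log2 ratio was 1.94 over the 8 members and -0.05 over all genes tested. These ratios are relative to total UMIs, and the median depths were 20710 UMIs in the immature gate and 11130 in the mature gate. The share of cells with a UMI also rose for the 7 members, for *Tlr2* from 31.5% to 52.2% and for *Myd88* from 55.5% to 64.7%. For *Tlr7* it fell from 14.3% to 9.18%, so its nearly equal level holds only relative to total UMIs.

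The members with UMIs had lower levels in both earlier marrow gates than in the immature gate, although for *Tlr1* and *Tlr4* the counting intervals overlapped. *Tlr4* had 9.14 CPM in the promyelocyte gate (188 cells), 9.82 CPM in the cycling gate (237 cells), and 10.0 CPM in the immature gate. Relative to total UMIs, its level was thus nearly flat until the mature gate. The shares of cells with a *Tlr4* UMI were 29.8%, 28.7%, 18.3%, and 33.3% from the promyelocyte to the mature gate. Median depths fell over these gates, at 40681, 36642, 20710, and 11130 UMIs. *Tlr13* had 0.52, 2.13, and 26.5 CPM in the promyelocyte, cycling, and immature gates, and *Tlr2* had 3.22, 2.48, and 20.3 CPM. *Tlr7* had 0.64 CPM in the promyelocyte gate, 4.02 CPM in the cycling gate, and 8.10 CPM in the immature gate, followed by 8.66 CPM in the mature gate. *Cd14* had 2.19, 1.30, and 7.36 CPM, and *Myd88* had 21.4, 26.6, and 44.7 CPM.

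Between the mature gates of marrow and blood, *Cd14* (ENSMUSG00000051439, chromosome 18 from 36725067 to 36726798 of GRCm38, minus strand) stood out from the other members. It had 26.4 CPM (61 UMIs) in marrow and 236 CPM (746 UMIs) in blood, which is 8.94-fold higher, with a log2 ratio of 3.16 (2.78 to 3.56). Of 8 members with enough UMIs, *Cd14* alone was at least 2-fold higher and *Tlr7* alone at least 2-fold lower, against 6.0% of 6246 genes higher and 3.51% lower. *Tlr7* rested on 20 marrow UMIs and 11 blood UMIs (8.66 and 3.48 CPM), and its log2 ratio of -1.31 (-2.52 to -0.18) ranged from -1.78 to -0.46 over 10 alternatives, 2 of which left it under 2-fold. *Tlr2* had 81.0 CPM in marrow and 83.6 CPM in blood, *Tlr4* had 38.6 and 45.9 CPM, *Tlr6* had 21.2 and 26.6 CPM, *Tlr1* had 9.10 and 13.9 CPM, and *Tlr13* had 101 and 113 CPM. The counting intervals of these 5 log2 ratios all held 0. *Myd88* had 102 CPM in marrow and 142 CPM in blood, a log2 ratio of 0.48 (0.25 to 0.71). *Tlr9* again had 0 UMIs in both gates.

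Between the mature gates of blood and tendon, *Cd14* and *Tlr2* were the members that differed most in level. *Cd14* had 236 CPM in blood, with an interval of 220 to 254, and reached 3861 CPM in tendon, with an interval of 3779 to 3945, which is 16.3-fold higher, with a log2 ratio of 4.03 (3.92 to 4.14). *Tlr2* had 83.6 CPM in blood, with an interval of 73.8 to 94.3, and 328 CPM in tendon, with an interval of 304 to 353, which is 3.92-fold higher, with a log2 ratio of 1.97 (1.77 to 2.18). Of 8 members, 4 were at least 2-fold higher in tendon and 0 lower, against 18.3% of 6486 genes higher and 15.1% lower. The other members past this mark were *Tlr13*, with 113 and 228 CPM and a log2 ratio of 1.01 (0.81 to 1.21), and *Tlr7*, with 11 and 24 UMIs (3.48 and 11.1 CPM) and a log2 ratio of 1.67 (0.59 to 2.85). *Tlr13* lay under 2-fold in 4 of 10 alternatives, with a lowest log2 ratio of 0.75. Just under the mark were *Tlr6* with 26.6 and 52.2 CPM (log2 ratio 0.97, 0.55 to 1.40), *Tlr1* with 13.9 and 26.8 CPM (0.94, 0.35 to 1.54), and *Tlr4* with 45.9 and 81.8 CPM (0.83, 0.51 to 1.16). *Myd88* had the opposite sign, with 142 CPM in blood and 110 CPM in tendon and a log2 ratio of -0.36 (-0.59 to -0.13), which is under 2-fold. *Tlr9* had 0 UMIs in the 550 tendon cells, which allows up to 1.39 CPM. The median log2 ratio was 0.99 over the 8 members and -0.02 over all genes tested.

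Several other values moved with the tendon library. A list of 10 genes that digestion of tissue is known to induce, such as *Fos* and *Junb*, summed to 568 CPM in the mature gate of marrow, 1315 CPM in blood, and 3970 CPM in tendon, and single genes of the list ranged from 3.70 to 2388 CPM in the tendon gate. The part of digestion in the differences was not tested. The 20 monocyte/macrophage markers summed to 6731, 4713, and 3953 CPM in the mature gates of marrow, blood, and tendon, with 15, 17, and 20 of them above 0, and *Lyz2*, which neutrophils also express, made up 5996, 4162, and 1517 CPM of these sums. *Mrc1* and *Arg1* had 0 UMIs in the marrow and blood gates and 12.9 and 5.54 CPM in the tendon gate, and *Spp1* had 1758 CPM in the tendon gate against 1739 CPM in tendon C1q-low cells. *Ccr2* and *Ms4a6c*, which mark monocytes, had 6.93 and 10.6 CPM in the tendon gate against 693 and 1055 CPM in tendon C1q-low cells. Markers of tissue cells were also seen in the tendon gate. The 12 mesenchymal markers summed to 0, 0.32, and 167 CPM in the mature gates of marrow, blood, and tendon, with 0, 1, and 12 of them above 0 and *Col3a1* the highest at 44.4 CPM in tendon. The 10 keratinocyte markers summed to 7.80, 12.04, and 166 CPM, with 2, 1, and 10 of them above 0 and *Krt14* the highest at 71.2 CPM in tendon. The *Cd14* level of the tendon neutrophils (3861 CPM) was above that of any other group in the tendon library. The part of RNA from other cells in the differences was not tested.

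**Figure D1:**
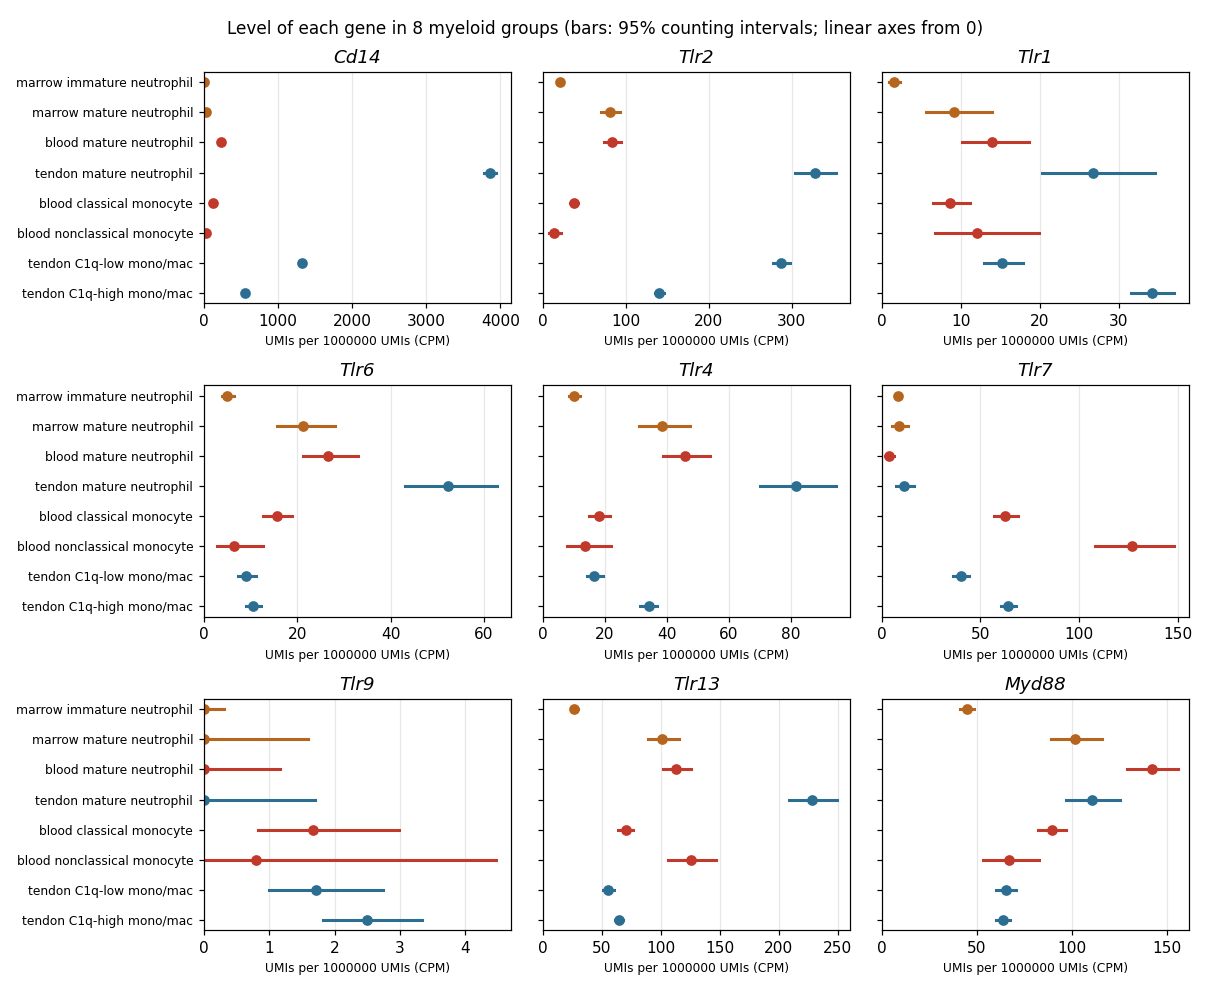
UMIs per 1000000 UMIs (x axis, linear, from 0) of each of the 9 genes in 8 myeloid groups (rows), with 95% counting intervals as lines and colours for marrow, blood, and tendon. *Cd14* stands at 3861 CPM in tendon mature neutrophils against 236 CPM in blood mature neutrophils, *Tlr7* is highest in blood nonclassical monocytes at 127 CPM, and *Tlr9* lies at 0 in all 4 neutrophil groups.

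Shares of cells with a UMI, taken at equal depth, gave a similar picture for *Cd14*, *Tlr2*, and *Tlr13* but not for *Tlr7*. Each cell was thinned to 1000 UMIs, which left out 3 marrow, 3 blood, and 20 tendon cells of the mature gates. After thinning, 482 of 530 tendon neutrophils (90.9%, 95% Clopper-Pearson interval 88.2% to 93.2%) held a *Cd14* UMI, against 57 of 360 in blood (15.8%, 12.2% to 20.02%) and 9 of 204 in marrow (4.41%, 2.04% to 8.21%). Without thinning, at median depths of 3474, 8327, and 11130 UMIs, the shares were 97.1%, 51.5%, and 18.4%. For *Tlr2* the thinned shares were 22.5% in tendon, 9.72% in blood, and 7.35% in marrow, and for *Tlr13* they were 20.8%, 12.5%, and 11.8%. Without thinning, the *Tlr2* shares were 55.5%, 41.9%, and 52.2%. Those of *Tlr13* were 50.7%, 58.1%, and 63.8%, the reverse order, so its higher tendon value holds only relative to total UMIs. *Tlr7* UMIs were found in 3 of 530 tendon cells (0.57%) and 3 of 360 blood cells (0.83%), so no order is read from its shares. Cells of 3 groups outside the myeloid classes were read for comparison, and whether their *Cd14* UMIs came from free RNA in the droplets was not tested. After thinning, a *Cd14* UMI was found in 1 of 740 blood T cell-like cells (0.14%), in 3 of 184 tendon keratinocyte-like cells (1.63%), and in 0 of 61 tendon Schwann-like cells, a count of 0 that allows up to 4.92%. Without thinning, the shares in these cells were 0.40%, 20.5%, and 3.17%, at median depths of 8801, 38779, and 7915 UMIs. No tendon cluster was named T or NK cell-like, and the tendon B cell-like group held only 22 cells. Skin and nerve cells therefore took the place of lymphocytes there. The B cell-like group (median depth 2871 UMIs) had 137 CPM of *Cd14* from 12 UMIs (70.7 to 239). The cluster led by *Mcpt4* and *Cma1* (median depth 3979 UMIs) had 225 CPM (173 to 287), with a thinned share of 2.04%. The deeper keratinocyte-like cells had 15.04 CPM, so their shares do not stand for shallow cells.

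**Figure D2:**
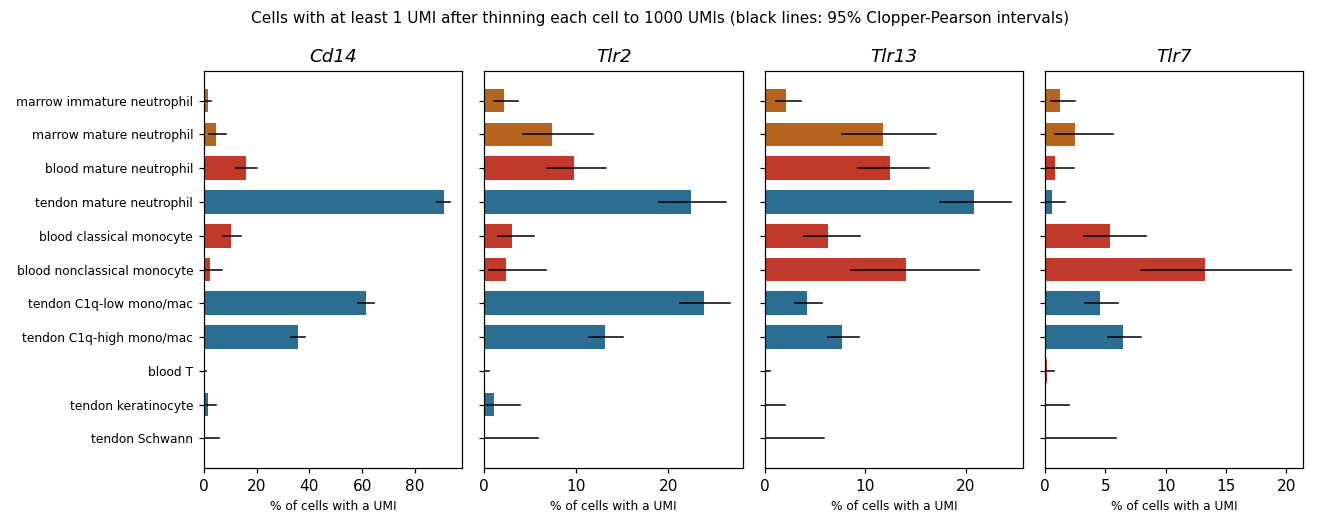
Share of cells with at least 1 UMI of *Cd14*, *Tlr2*, *Tlr13*, and *Tlr7* (x axes, percent, from 0) after thinning each cell to 1000 UMIs. Rows are 8 myeloid groups and 3 groups of other cells, with 95% Clopper-Pearson intervals as black lines. The *Cd14* bar of tendon mature neutrophils reaches 90.9%, that of tendon C1q-low cells 61.5%, and that of blood T cells 0.14%.

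Blood monocytes were split within each cell by the UMIs of classical genes such as *Ly6c2* and nonclassical genes such as *Ace*, which gave 333 classical and 130 nonclassical cells with median depths of 19292 and 7730 UMIs. The classical group holds 33 of the 37 cells of a small cluster rich in complement *C1q*. *Cd14* was the member that set the subsets furthest apart, with 120 CPM in classical and 24.1 CPM in nonclassical cells and a log2 ratio of -2.32 (-2.89 to -1.79). Of 8 members, 3 were at least 2-fold lower in nonclassical cells and 1 was higher, against 10.0% of 9513 genes lower and 9.36% higher. *Tlr2* had 37.5 CPM in classical and 13.7 CPM in nonclassical cells (log2 ratio -1.46, -2.26 to -0.75), and *Tlr6* had 15.6 and 6.42 CPM from 103 and 8 UMIs (-1.28, -2.53 to -0.25). *Tlr4* had 18.2 and 13.7 CPM and *Tlr1* had 8.63 and 12.04 CPM, and the intervals of both ratios held 0. *Tlr7* was the member that was higher in nonclassical cells by the 2-fold rule. It had 62.5 CPM in classical and 127 CPM in nonclassical cells, a log2 ratio of 1.02 (0.75 to 1.29) that fell just under 2-fold in 3 of 11 alternatives. *Tlr13* had 70.1 and 125 CPM, a log2 ratio of 0.84 (0.57 to 1.10) that did not reach 2-fold. Unthinned shares of classical and nonclassical cells with a UMI were 63.1% and 61.5% for *Tlr7* and 65.8% and 56.2% for *Tlr13*. The higher nonclassical values of both receptors thus hold only relative to total UMIs. *Myd88* had 89.5 and 66.6 CPM, a log2 ratio of -0.42 (-0.77 to -0.09), and *Tlr9* had 11 UMIs in classical cells and 1 in nonclassical cells. Classical monocytes of the marrow (339 cells) had 13.4 CPM of *Cd14*, 31.5 CPM of *Tlr2*, 18.9 CPM of *Tlr7*, and 51.2 CPM of *Tlr13*.

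At the tendon injury site, monocyte/macrophage-like cells were split by the share of *C1qa*, *C1qb*, and *C1qc*, complement genes of resident and maturing macrophages, into 961 C1q-low and 1294 C1q-high cells, with 199 of these 2255 cells close to the cut. Compared with classical blood monocytes, C1q-low cells had more *Cd14* and *Tlr2*, and the other members differed by less than 2-fold. *Cd14* had 120 CPM in blood and 1320 CPM in tendon, a log2 ratio of 3.46 (3.36 to 3.56). *Tlr2* had 37.5 and 288 CPM, which is 7.67-fold higher, with a log2 ratio of 2.94 (2.75 to 3.13). Without the *C1q*-rich blood cells, a setting chosen after the data had been seen, these log2 ratios were 3.82 and 2.75. *Cd14* and *Tlr2* were 2 of 9 members at least 2-fold higher, and 0 were lower, against 11.4% of 10516 genes higher and 17.5% lower. The partners of *Tlr2* differed less, with 8.63 and 15.2 CPM of *Tlr1* (log2 ratio 0.82, 0.37 to 1.29) and 15.6 and 9.08 CPM of *Tlr6* (-0.78, -1.20 to -0.36). *Tlr4* had 18.2 CPM in blood and 16.6 CPM in tendon, with an interval of the log2 ratio from -0.48 to 0.22. *Tlr7* had 62.5 and 40.2 CPM (-0.64, -0.84 to -0.44), *Tlr13* had 70.1 and 55.1 CPM (-0.35, -0.53 to -0.17), and *Myd88* had 89.5 and 65.2 CPM (-0.46, -0.62 to -0.29). *Tlr9* had 1.67 CPM from 11 UMIs in blood and 1.72 CPM from 17 UMIs in tendon. The stress list summed to 923 CPM in the blood cells and 4017 CPM in the tendon cells, and its part was not tested. The median log2 ratio was -0.13 over the 9 members and -0.24 over all genes tested.

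Within the tendon library, C1q-high cells had less *Cd14* and *Tlr2* and more *Tlr1* and *Tlr4* than C1q-low cells. *Cd14* had 1320 CPM in C1q-low and 551 CPM in C1q-high cells, a log2 ratio of -1.26 (-1.30 to -1.22), and *Tlr2* had 288 and 140 CPM, a log2 ratio of -1.04 (-1.11 to -0.96). *Tlr1* had 15.2 and 34.3 CPM, a log2 ratio of 1.17 (0.91 to 1.44), and *Tlr4* had 16.6 and 34.2 CPM, a log2 ratio of 1.05 (0.79 to 1.30). These were 2 of 9 members at least 2-fold lower and 2 at least 2-fold higher, against 4.37% of 11340 genes lower and 14.8% higher. *Tlr2* lay under 2-fold in 4 of 10 alternatives (highest log2 ratio -0.97) and *Tlr4* in 6 of 10 (lowest log2 ratio 0.82). *Tlr7* had 40.2 and 64.2 CPM (log2 ratio 0.68, 0.51 to 0.84), *Tlr13* had 55.1 and 64.4 CPM (0.22, 0.08 to 0.37), and *Tlr9* had 1.72 and 2.49 CPM from 17 and 45 UMIs. *Tlr6* had 9.08 and 10.6 CPM and *Myd88* 65.2 and 63.8 CPM, and both intervals held 0. The stress list summed to 4017 CPM in C1q-low and 5540 CPM in C1q-high cells. C1q-high cells that carried at least 2 UMIs of *Folr2* and *Cd163*, markers of resident macrophages (732 cells), had 420 CPM of *Cd14*, 116 CPM of *Tlr2*, 37.2 CPM of *Tlr1*, and 41.0 CPM of *Tlr4*. The remaining 562 C1q-high cells had 808, 188, 28.6, and 20.7 CPM, and were thus nearer to the C1q-low cells in all 4 genes. The median depths of these subsets were 15665.5 and 11158 UMIs, and a cut on a number of UMIs depends on depth.

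The 6 monocyte/macrophage-like tendon clusters, which were made without the 9 genes, showed the same contrast in finer steps. The cluster led by the monocyte genes *Plac8* and *Ly6c2* (460 cells) had 1604 CPM of *Cd14* and 331 CPM of *Tlr2*, the highest of the 6. The cluster led by *Cd163* and *Ccl8* (422 cells) had the lowest *Cd14* at 295 CPM and the highest *Tlr1* and *Tlr4* at 47.5 and 52.9 CPM, against 8.14 and 16.2 CPM in the *Plac8* cluster. The cluster led by the antigen presentation genes *Cd74* and *H2-Aa* (451 cells) had 1112 CPM of *Cd14*, 257 CPM of *Tlr2*, and the lowest *Tlr4* at 7.05 CPM. The cluster led by *Arg1* and *Ppbp* (520 cells) had the highest *Tlr13* at 85.1 CPM. The cluster led by the interferon-induced genes *Rsad2* and *Ifit2* (134 cells) had the highest *Tlr7* at 109 CPM, while the *Plac8* and *Cd74* clusters had 35.1 and 29.9 CPM. The unnamed cluster led by *Acp5* had 204 CPM of *Cd14* and 45.7 CPM of *Tlr2*, below all 6 of these clusters in both genes.

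**Figure D3:**
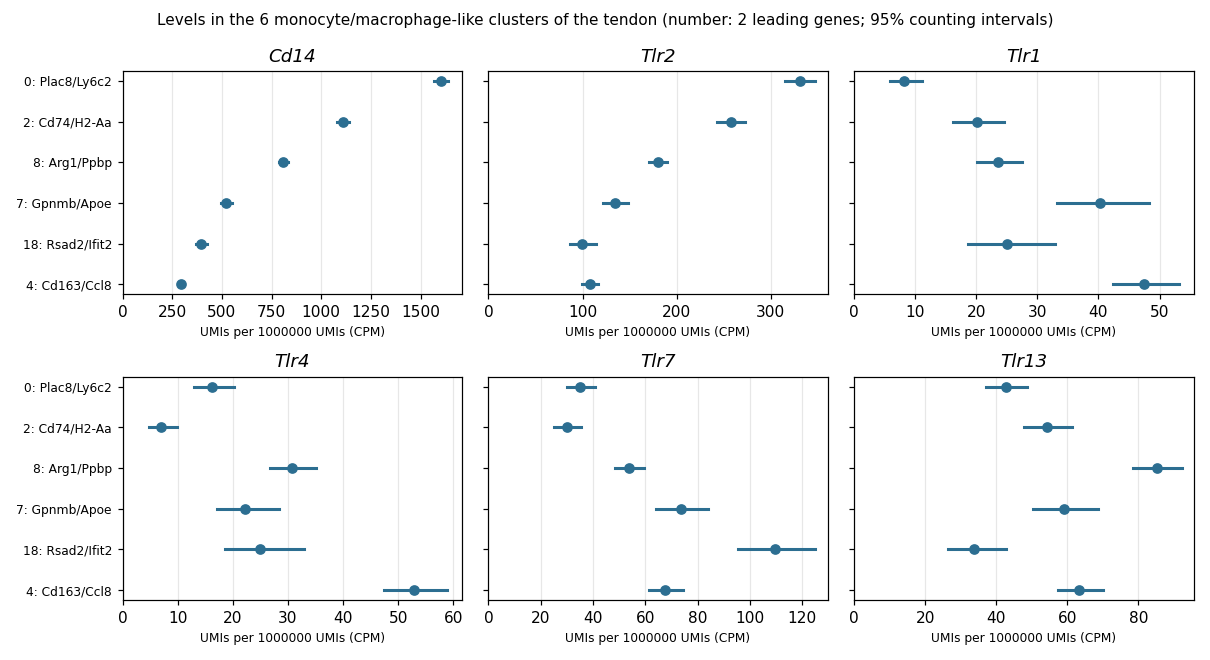
UMIs per 1000000 UMIs (x axes, linear, from 0) of *Cd14*, *Tlr2*, *Tlr1*, *Tlr4*, *Tlr7*, and *Tlr13* in the 6 monocyte/macrophage-like clusters of the tendon injury site, each labelled by its number and 2 leading genes, with 95% counting intervals. From top to bottom *Cd14* goes from 1604 to 295 CPM, while *Tlr1* and *Tlr4* are highest in the bottom cluster at 47.5 and 52.9 CPM.

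Neutrophils and C1q-low cells of the tendon, from the same library and digestion, differed in most receptors. The neutrophils had more *Cd14* (3861 against 1320 CPM, log2 ratio 1.55, 1.51 to 1.59), *Tlr4* (81.8 against 16.6 CPM, 2.30, 1.99 to 2.62), *Tlr6* (52.2 against 9.08 CPM, 2.52, 2.11 to 2.94), and *Tlr13* (228 against 55.1 CPM, 2.05, 1.87 to 2.23). They had less *Tlr7*, at 11.1 against 40.2 CPM (-1.86, -2.52 to -1.26). These were 4 of 8 members at least 2-fold higher and 1 lower, against 10.4% of 9790 genes higher and 51.5% lower, and the median log2 ratio over all genes was -1.06. *Tlr2* had 328 CPM in neutrophils and 288 CPM in C1q-low cells (log2 ratio 0.19, 0.07 to 0.31), *Tlr1* had 26.8 and 15.2 CPM (0.81, 0.35 to 1.26), and *Myd88* had 110 and 65.2 CPM (0.76, 0.54 to 0.98). *Tlr9* had 0 UMIs in neutrophils and 17 UMIs in C1q-low cells. The neutrophils were shallower, with a median of 3474 UMIs against 10475. *Cd14* had 8357 UMIs in 550 neutrophils and 13083 UMIs in 961 C1q-low cells. The size of its difference thus holds only relative to total UMIs. Unthinned shares of cells with a UMI were higher in neutrophils for *Cd14* (97.1% against 90.8%), *Tlr4*, *Tlr6*, and *Tlr13*. They were lower for *Tlr2* (55.5% against 79.2%), *Tlr1* (9.45% against 13.01%), and *Myd88* (33.6% against 44.7%). The higher neutrophil values of these last genes hold only relative to total UMIs.

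**Figure D4:**
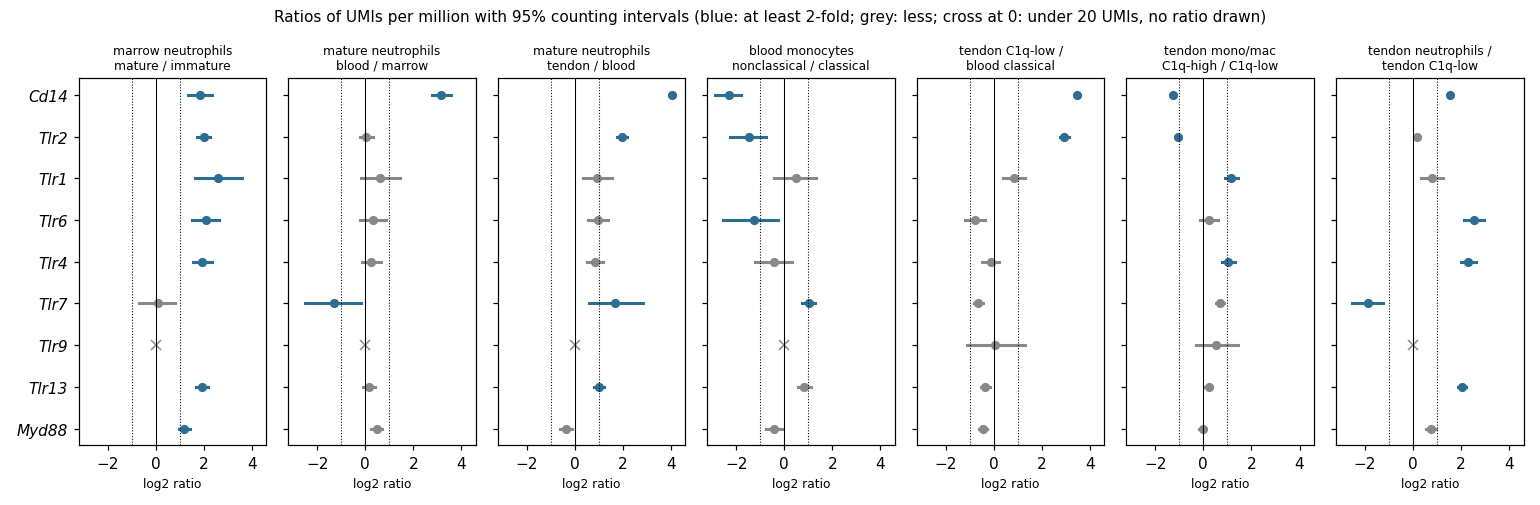
Log2 ratios (x axes) of the 9 genes (rows) in the 7 comparisons, with 95% counting intervals as lines, dotted lines at 2-fold, blue for at least 2-fold, grey for less, and a cross where there were under 20 UMIs. *Cd14* is blue in all 7 panels, from -2.32 between blood monocyte subsets to 4.03 between tendon and blood neutrophils, while *Tlr7* lies at or below 0.10 in the marrow and blood neutrophil panels and at 1.67 in the tendon one.

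Across all 25 groups of at least 50 cells, the members had different centres. By CPM, *Cd14* and *Tlr2* had the same 3 groups on top, tendon neutrophils, tendon C1q-low cells, and tendon C1q-high cells. Each was apart from the next beyond its counting interval. After thinning, however, a *Tlr2* UMI was found in 22.5% (19.0% to 26.2%) of tendon neutrophils and 23.9% (21.2% to 26.7%) of C1q-low cells, which overlapped. Without thinning, these shares were 55.5% and 79.2%. The first place of tendon neutrophils for *Tlr2* thus holds by CPM only. For *Tlr4* and *Tlr6* the order was tendon, blood, and marrow mature neutrophils, with the last 2 indistinguishable by their intervals. The marrow interval also overlapped that of the next group. For *Tlr4* this was tendon C1q-high cells at 34.2 CPM (31.5 to 37.0), and for *Tlr6* blood classical monocytes at 15.6 CPM (12.7 to 18.9). Without thinning, the shares of tendon, blood, and marrow mature neutrophils with a UMI ran in the reverse order. They were 24.2%, 29.8%, and 33.3% for *Tlr4* and 17.3%, 20.4%, and 21.3% for *Tlr6*. The order of these neutrophil groups by CPM thus holds only relative to total UMIs. *Tlr13* was highest by CPM in tendon neutrophils, followed by blood nonclassical monocytes at 125 CPM (106 to 147), blood neutrophils at 113 CPM (102 to 125), and marrow mature neutrophils at 101 CPM (88.8 to 115), which overlapped each other. *Tlr7* was highest by CPM in blood nonclassical monocytes at 127 CPM (108 to 148). The next groups, tendon C1q-high cells at 64.2 CPM and blood classical monocytes at 62.5 CPM, did not differ beyond counting error. Unthinned shares of cells with a *Tlr7* UMI were 61.5%, 48.3%, and 63.1% in the same order. The first place of nonclassical monocytes thus holds only relative to total UMIs. *Myd88* was highest by CPM in blood mature neutrophils at 142 CPM (129 to 156). Unthinned, a *Myd88* UMI was found in 70.0% of these cells, 75.1% of blood classical monocytes, and 80.8% of marrow classical monocytes. The first place of blood neutrophils for *Myd88* thus holds only relative to total UMIs. *Tlr1* had its highest levels in tendon C1q-high cells at 34.3 CPM (31.6 to 37.1) and blood B cell-like cells at 30.3 CPM (23.4 to 38.5), which overlapped. *Tlr9*, a receptor known from B cells and plasmacytoid dendritic cells, had its highest levels in blood B cell-like cells at 5.04 CPM (11 UMIs) and tendon dendritic-like cells at 4.46 CPM (8 UMIs). The intervals of all 25 groups overlapped from each to the next for *Tlr9*, so no order of neighbouring groups is read from them.

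Lymphocytes and stromal cells in groups of at least 50 cells carried little of most members. Blood T cell-like cells (743) had 0.45 CPM of *Cd14*, 0.75 CPM of *Tlr2*, 0 UMIs of *Tlr4*, *Tlr9*, and *Tlr13*, 3.30 CPM of *Tlr7*, 10.0 CPM of *Tlr1*, and 14.5 CPM of *Myd88*. Blood NK cell-like cells (137) had 0 UMIs of *Cd14*, *Tlr2*, *Tlr6*, *Tlr7*, *Tlr9*, and *Tlr13*, which allows up to 3.30 CPM of each. Mesenchymal-like cells of the tendon (700) had 14.2 CPM of *Cd14*, 13.8 CPM of *Tlr2*, and 6.12 CPM of *Tlr4*, and endothelial-like cells (295) had 50.2, 4.59, and 7.81 CPM of the same genes. Mural-like cells (107) had 7.10 CPM of *Tlr4*, against 0.38 CPM in keratinocyte-like cells (185) and 0 UMIs in Schwann-like cells (63). *Myd88* was present in every one of these tissue cell groups, at 18.8 to 39.2 CPM. Tendon dendritic-like cells (176) had 353 CPM of *Cd14* and 96.9 CPM of *Tlr2*, but 3.34 CPM of *Tlr4* and 11.1 CPM of *Tlr13*.

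Of the UMIs in all cells kept, monocyte/macrophage-like cells held 66.7% of tendon *Cd14* (23031 of 34504), 76.0% of *Tlr2*, 81.8% of *Tlr1*, and 90.7% of *Tlr7*. Neutrophil-like cells, which were fewer and shallower, held 24.5% of tendon *Cd14*, 10.3% of *Tlr2*, 25.2% of *Tlr6*, and 1.46% of *Tlr7*. In blood, *Tlr7* was likewise held by monocytes (89.9%), whereas *Cd14* was nearly evenly divided between monocytes (50.2%) and neutrophils (49.6%). These shares follow the numbers and depths of the cells and are not levels per cell.

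The genes whose levels most resembled each member were sought over the same 25 groups by Pearson correlation of log2(CPM + 1) among 12454 genes. These values describe groups that share 3 libraries and their depths, and no test was made. *Nlrp3*, an inflammasome sensor, was the closest gene to both *Cd14* (r = 0.94) and *Tlr2* (r = 0.93), and *Tlr2* was second for *Cd14* (r = 0.90). *Arrdc4* followed for *Cd14* (0.89), and *Rnf149* and *Wfdc17* for *Tlr2* (0.92 and 0.91). For *Tlr13* the closest were *Cd300ld* (0.97), *Tlr8* (0.96), and *Gm5150* (0.96). *Myd88* was closest to *Bach1* (0.91), *Emilin2* (0.90), and *Tlr13* (0.87), and *Tlr6* to *Cyp4f18* (0.91), *Lilra6* (0.90), and *Pira2* (0.90). *Tlr7* was closest to *Susd3* (0.90), *Dhx58* (0.87), and *Fkbp15* (0.87). *Tlr4* had weaker neighbours in *Arsg* (0.83), *Tmub2* (0.81), and *Fam21* (0.79), as did *Tlr1* in *Pias1* (0.86), *Dclre1c* (0.85), and *Trim30d* (0.84). *Tlr9* was closest to *Kmo*, *H2-Ab1*, and *Ciita* (0.95, 0.94, and 0.94), on few UMIs. Among pairs of members the correlation ran from -0.04 for *Tlr9* and *Myd88* to 0.90 for *Tlr2* and *Cd14*.

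The wider pathway was read from a list of 32 genes of ligand delivery, receptor trafficking, adaptors, kinases, and feedback. In mature against immature marrow neutrophils, 6 of 25 listed genes with enough UMIs were at least 2-fold higher and 3 lower, and named among them are *Ly96*, which encodes MD-2, the partner of TLR4 (10.0 and 31.6 CPM, log2 ratio 1.66), the endosomal receptor *Tlr8* (5.54 and 29.5 CPM, 2.41), the interferon factor *Irf7* (15.9 and 32.5 CPM, 1.03), and, lower, the lipopolysaccharide-binding protein *Lbp* (79.4 and 1.30 CPM from 961 and 3 UMIs, -5.93, -8.21 to -4.38) and the chaperone *Hsp90b1*, which folds Toll-like receptors (101 and 4.33 CPM, -4.54). Between marrow and blood, 2 of 21 were higher and 0 lower, among them *Irf7* (32.5 and 74.1 CPM, 1.19). In tendon against blood neutrophils, 10 of 22 were higher and 2 lower. The 2 largest differences were in the NF-kB feedback inhibitors *Tnfaip3* (4.12 CPM in blood and 665 CPM in tendon, log2 ratio 7.34, 6.56 to 8.25) and *Nfkbia* (145 and 5940 CPM, 5.36, 5.22 to 5.50). They were followed by *Pik3ap1* (7.28 and 102 CPM, 3.81), the kinase *Irak2* (13.3 and 115 CPM, 3.11), the inhibitory kinase *Irak3* (30.4 and 141 CPM, 2.22), and the kinase *Tbk1* (17.4 and 66.1 CPM, 1.92).

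The same list was counted in the monocyte and macrophage comparisons. In nonclassical against classical blood monocytes, 5 of 28 were higher and 3 lower, with the scavenger receptor *Cd36* (36.6 and 205 CPM, log2 ratio 2.48), *Cd180* (56.8 and 143 CPM, 1.33), and the kinase *Map3k8* (29.8 and 64.2 CPM, 1.11) higher and *Ikbke* (-1.86), *Lbp* (-1.43), and *Ly86*, the partner of CD180 (374 and 148 CPM, -1.34), lower. In tendon C1q-low cells against blood classical monocytes, 7 of 30 were higher and 6 lower, with *Tnfaip3* (3.78 and 242 CPM, 6.0), *Nfkbia* (178 and 2366 CPM, 3.74), *Pik3ap1* (2.11), *Tlr5*, the flagellin receptor (2.57 and 8.58 CPM, 1.74), and *Irak2* (1.72) higher and *Lbp* (28.2 and 6.56 CPM, -2.10) lower. In C1q-high against C1q-low cells, 4 of 31 were higher and 1 lower, with *Tlr3*, the receptor of double-stranded RNA (1.61 and 7.09 CPM, 2.13), *Cd36* (75.5 and 190 CPM, 1.33), and *Cd180* (21.6 and 50.3 CPM, 1.22) higher and *Irak2* (50.4 and 20.9 CPM, -1.27) lower. In tendon neutrophils against C1q-low cells, 6 of 28 were higher and 12 lower. The adaptor *Tirap*, which brings MyD88 to TLR2 and TLR4, was among the higher genes (7.17 and 46.2 CPM, 2.69), as was *Irak3* (33.1 and 141 CPM, 2.09), and *Ly86* (154 and 1.85 CPM, -6.38), *Cd36* (-3.18), *Hsp90b1* (-3.18), and *Cd180* (-2.74) were among the lower. The background shares of genes past 2-fold are those given above for each comparison, and the list was chosen with earlier results of these data known.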

How the data were processed

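Droplet single-cell RNA sequencing covered 3 libraries, from marrow, blood, and injured tendon. The deposited values are whole-number UMI counts without normalization, which the authors obtained with Cell Ranger (version 5.0.1 in the file headers) on the mouse build mm10 (named in the submitters' processing notes), equal to GRCm38. The members, gene lists, and comparisons were chosen with earlier results of these data known.

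Barcodes with fewer than 200 genes or with over 20% of UMIs from mitochondrial genes were dropped, 15 marrow, 57 blood, and 651 tendon barcodes in all. The automatic Scrublet threshold marked 1, 32, and 6 cells and did not work for the tendon, so in each library the highest scores were removed at 0.8% per 1000 cells (27, 38, and 198 cells). Each library was log-normalized and clustered by itself in scanpy 1.11.5 (2000 variable genes without members and pathway list, 30 principal components, 15 neighbours, Leiden resolution 1). Each cluster was named for the list that placed the most markers, at least 3, in its 100 leading genes. Clusters without a name by that rule were named by the markers most cells held, and names were withdrawn where leading genes went against them, a step settled after clusters had been seen.

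UMIs were summed per group and scaled to 1000000. The interval of a ratio treats the UMIs of both groups as an exact binomial draw, and a difference was counted at 2-fold or more with at least 20 UMIs in both groups together. A count of 0 allows up to 3 counts. Intervals cover counting error only. They were checked on UMIs simulated under the same counting model, without variation between cells or libraries. That check covers the calculation and cannot show how well the intervals hold in these data. Named genes are the 9 members, at most 6 listed pathway genes per comparison with at least 100 UMIs, the 3 closest genes per member among those with 10 CPM in a group, and gate checks. Alternatives changed filters, doublets, clustering, classes, scaling, gates, and thinning. Calculations ran in Python 3.11.15 with scikit-learn 1.9.0, igraph 0.11.9, scipy 1.17.1, numpy 2.4.6, and pandas 2.3.3, and plots were drawn in matplotlib 3.10.9. Other experiments of the study were not analysed here.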

Additional observations from a re-analysis of the deposited data

Results flagged for a closer look

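For 3 receptors, the log2 ratio of tendon to blood had opposite signs in neutrophils and in monocytes/macrophages, with counting intervals on opposite sides of 0. *Tlr6* was 0.97 in the mature neutrophil gates and -0.78 in C1q-low tendon cells against classical blood monocytes. *Tlr7* was 1.67 and -0.64 in the same order, the former from 24 tendon and 11 blood UMIs. *Tlr13* was 1.01 and -0.35. Without thinning, fewer tendon than blood mature neutrophils held a UMI of *Tlr6* (17.3% against 20.4%) or *Tlr13* (50.7% against 58.1%). Median depths were 3474 and 8327 UMIs, so the positive ratios of *Tlr6* and *Tlr13* hold only relative to total UMIs. For *Tlr7* the unthinned shares were 4.18% and 2.75%. Each value rests on 1 library per tissue, and the difference between the cell types was not tested.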

How the results depend on the processing

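Of 58 member ratios, 28 were at least 2-fold, and over 10 alternatives and 1 more chosen after the data had been seen (blood monocytes without C1q-rich cells) 569 of 596 recomputed ratios kept their call, 27 changed it, and 0 of the called ratios reversed. Between blood and marrow neutrophils, 2 members past 2-fold became 1 with doublets kept and 1 with classes set cell by cell, since *Tlr7* dropped out. Between C1q-high and C1q-low cells, 4 became 2 with stricter cell filters and 2 with doublets kept, without *Tlr2* and *Tlr4*. The share of tendon neutrophils with a *Cd14* UMI was 90.9% after thinning to 1000 UMIs, 76.7% at 500, and 96.3% at 2000. The tendon mature gate held 550 cells in the main setting and at resolution 0.5, but 249 at resolution 2. It held 296 cells with members kept in the clustering, 340 with stricter filters, 389 with doublets kept, and 467 with classes set cell by cell. Its *Cd14* log2 ratio against the blood mature gate lay between 3.77 and 4.11 over the 10 alternatives. Leaving mitochondrial, ribosomal protein, and very abundant genes (above 1% of UMIs in a group) out of the total moved the median log2 ratio of all genes from -0.02 to -0.30 between tendon and blood neutrophils, where *Cd14* came to 3.77, *Tlr2* to 1.71, and *Tlr13* to 0.75, and from -0.05 to -0.27 between mature and immature marrow neutrophils. *Tlr1* and *Tlr6* passed 2-fold between tendon and blood neutrophils in 3 and 2 of 10 alternatives. No paired analysis was possible because each tissue has 1 library, and no library could be left out. Depth limits *Tlr9*, with 16, 24, and 80 UMIs in the marrow, blood, and tendon libraries, and *Tlr7* in neutrophils.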

Other observations

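The following values were chosen after they had been seen, in groups too small for the report or in clusters. Marrow plasmacytoid dendritic-like cells (41 cells) had 55.4 CPM of *Tlr7* from 28 UMIs (36.8 to 80.1) and 3.96 CPM of *Tlr9* from 2 UMIs, with 33.6 CPM of *Myd88*. Among blood T cell-like clusters, the one led by the interferon-induced genes *Iigp1* and *Ifit1* (36 cells) had 26.2 CPM of *Tlr7* from 9 UMIs (11.96 to 49.6), and the other 4 had 0 to 3.03 CPM. The small *C1q*-rich cluster of blood, led by *Prg4* and *C1qa* (37 cells), had 257 CPM of *Cd14* (229 to 289), 8.94 CPM of *Tlr2*, and 27.7 CPM of *Tlr7*.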
